A study of Mus musculus with 16 samples.

Results

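The 32 genes described here mark tissue-resident alveolar macrophages or carry the GM-CSF and TGF-beta signals that maintain them. They were chosen by gene symbol from a list, out of 23159 symbols in the count table. All 32 were found, 2 of them under an older symbol (Siglecf as Siglec5 and Plet1 as 1600029D21Rik), and all 32 passed the filter on low counts. They fall into surface markers, transcription factors, lipid-handling genes, the GM-CSF receptor, the TGF-beta receptor, ribonucleases, keratins and other epithelial-type genes, lysosomal genes, transporters and a channel, and 2 further genes, Flt1 and Gal.

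Alveolar macrophages live in the airspace and clear surfactant, the lipid film that keeps the alveoli open. GM-CSF released by alveolar epithelial cells acts through CSF2RA and its beta chain to switch on PPARG, a nuclear receptor that drives genes of lipid uptake and storage, and TGF-beta, which macrophages also make, acts through TGFBR1 and TGFBR2 to keep the same programme on. Monocytes that enter the lung during infection have little of this programme at first and can gain it over time.

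Macrophages were taken from bronchoalveolar lavage fluid of mice and profiled by bulk mRNA sequencing in 4 groups of 4 libraries. The groups were wild type (WT) and TLR3-KO, a genotype that lacks the endosomal receptor for double-stranded RNA, each as a control and as "injured", labelled as taken following pneumonia. Pneumonia was started with 500 CFU of Klebsiella pneumoniae in 30 µl, given by deep hypopharyngeal injection. The controls' treatment is labelled as none, while the protocol text names saline for mice that did not receive bacteria. The strain background, the kind of knockout allele, the animals' age and the time after infection are not given in the sources used here. The labels do not say whether the libraries are separate mice, so each p-value reflects how far these libraries differ among themselves, which may be technical.

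Total counts per library ranged from 29667102 to 59640251. The series text counts 15 samples, and the table holds 16 libraries. Tlr3 itself stood at 2.33 to 4.73 CPM (counts scaled to the size of the library) in the 8 WT libraries and at 0.278 to 0.74 CPM in the 8 TLR3-KO libraries, so the ranges did not overlap. The series title names male mice, yet Xist, the RNA of the inactive X chromosome, reached 45.6, 32.2 and 20.1 CPM in replicates 1, 2 and 3 of the TLR3-KO controls but no more than 0.216 CPM elsewhere. In both genotypes, controls 1 and 2 stood apart from controls 3 and 4 in many genes, which is described for the identity genes below. No library was left out of the values that follow unless stated. In such bulk samples, fewer cells of a type and less RNA per cell cannot be told apart.

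The labels name macrophages of lavage fluid, and markers of alveolar macrophages and of other cells were read beside them. Chil3, a chitinase-like secreted protein of alveolar macrophages, was at a mean of 17571 to 18557 CPM over the 4 groups, and Marco, a scavenger receptor, at 814 to 1105 CPM. Ly6c2, which marks classical monocytes, reached no more than 1.43 CPM in any library, and Ccr2, their chemokine receptor, no more than 4.7 CPM. Of 9 markers of recruited monocytes, Fn1, which macrophages also make, held 97.0% of the summed level, and the other 8 together lay between 6.69 and 45.0 CPM. Epx, which defines eosinophils, was at 0 in all 16 libraries.

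Reads from near-identical copies can be split or lost between genes when they are counted, and a pair of receptor chains and a pair of ribonucleases among the 32 genes are such copies. The first 120 coding bases of each pair are shown 5′ to 3′ from the GENCODE M21 annotation of the mouse genome (GRCm38), with the bases that differ within a pair in capitals, because reads from this stretch can be told apart within a pair only where they cover a capital. Ear1 and Ear2 lie on chromosome 14, at 43818765 to 43875517 on the minus strand and 44102654 to 44103534 on the plus strand, and Csf2rb and Csf2rb2 lie on chromosome 15, at 78325752 to 78353847 on the plus strand and 78282507 to 78305721 on the minus strand.
Ear1: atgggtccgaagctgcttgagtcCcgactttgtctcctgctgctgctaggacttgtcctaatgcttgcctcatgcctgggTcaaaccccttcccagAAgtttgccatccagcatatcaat
Ear2: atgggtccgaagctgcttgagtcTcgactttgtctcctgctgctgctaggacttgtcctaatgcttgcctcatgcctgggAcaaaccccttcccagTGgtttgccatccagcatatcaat
Csf2rb: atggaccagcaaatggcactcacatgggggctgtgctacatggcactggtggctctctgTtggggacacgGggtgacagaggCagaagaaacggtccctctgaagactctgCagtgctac
Csf2rb2: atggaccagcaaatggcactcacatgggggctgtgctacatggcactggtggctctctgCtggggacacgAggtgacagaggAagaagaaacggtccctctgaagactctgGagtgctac
Each pair differed at 4 of these 120 bases. Over the whole aligned coding sequence Ear1 and Ear2 were identical at 445 of 465 bases (95.7%), and Csf2rb and Csf2rb2 at 2503 of 2628 bases (95.2%). Of all 50-base windows of the transcript, the length of 1 read, 57.4% of Ear1 and 41.5% of Ear2 occurred in at least 1 other gene, against 18.4% of Csf2rb and 19.5% of Csf2rb2. Windows shared with other genes also made up 21.1% of Fabp5 and 15.5% of Cd9. The values of Ear1, Ear2, Csf2rb, Csf2rb2, Fabp5 and Cd9 below are uncertain for this reason. The window shares do not give the size of that uncertainty, because the libraries were read from both ends. Whether the counting used strand is not given in the sources used here.

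Promoters, from 250 bases before to 50 bases after the start of transcription, were taken from RefSeq (GRCm38.p6) for the 23 of 32 genes with an entry. They were searched on both strands for letters of motifs known for factors of this programme. The direct repeat bound by PPARG with its partner RXR (AGGNCANAGGNCA) occurred in 1 of the 23 promoters, that of Fabp1, and in 0.381% of all 27025 promoters of the same length. The letters GAGGAA, a core of PU.1 sites, occurred in 9 of 23 and in 28.3% of all promoters. STAT5 letters (TTCNNNGAA) occurred in 1 of 23, Csf2rb2, and in 8.47% of all. The E-box CACGTG, which BHLHE40 and BHLHE41 bind, occurred in 1 of 23, Bhlhe41 itself, and in 7.24% of all. AGGTCA, a single PPAR half-site that also lies within the direct repeat, occurred in 4 of 23 and in 4335 of the 27025, TGANTCA of AP-1 in 3 of 23 and 7.93% of all, and GTCTAGAC of SMAD proteins in 0 of 23 and 0.211% of all. The 3 promoters that hold the direct repeat, the STAT5 letters and the E-box are shown on the gene's own strand with every match to the searched motifs in capitals.
Fabp1, chr6:71199629-71199928, plus strand: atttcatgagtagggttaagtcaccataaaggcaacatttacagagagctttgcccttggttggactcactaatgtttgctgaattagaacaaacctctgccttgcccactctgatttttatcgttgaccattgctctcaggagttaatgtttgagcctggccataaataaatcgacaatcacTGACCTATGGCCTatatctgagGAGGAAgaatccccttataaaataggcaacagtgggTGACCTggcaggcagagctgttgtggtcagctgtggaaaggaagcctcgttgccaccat
Csf2rb2, chr15:78305672-78305971, minus strand: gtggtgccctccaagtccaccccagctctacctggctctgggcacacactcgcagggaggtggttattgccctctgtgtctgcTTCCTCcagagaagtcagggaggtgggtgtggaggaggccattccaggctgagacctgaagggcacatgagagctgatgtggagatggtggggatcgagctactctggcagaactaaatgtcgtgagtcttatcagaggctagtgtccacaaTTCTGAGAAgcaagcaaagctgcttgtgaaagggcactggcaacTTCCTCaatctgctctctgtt
Bhlhe41, chr6:145865371-145865670, minus strand: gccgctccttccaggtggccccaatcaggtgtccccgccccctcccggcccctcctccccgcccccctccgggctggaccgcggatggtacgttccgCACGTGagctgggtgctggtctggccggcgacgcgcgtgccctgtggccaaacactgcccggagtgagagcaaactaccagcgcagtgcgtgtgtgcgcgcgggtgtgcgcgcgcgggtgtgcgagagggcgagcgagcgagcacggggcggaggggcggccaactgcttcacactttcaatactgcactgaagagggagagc
In the Fabp1 promoter the direct repeat reads on the opposite strand, and GAGGAA and a second half-site follow it. Csf2rb2 carries the STAT5 letters between a pair of matches to the PU.1 core. The promoters of Ear1 and Ear2, which lie close together on chromosome 14, were identical at 294 of 297 aligned bases (99.0%) and held no match to these motifs. A match is a string of letters and was not tested as a binding site.

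The identity genes were abundant in every library. Together they held 2.37% to 2.93% of all counts, 24 of the 32 were among the 1000 highest genes by CPM, and 6 were above 1000 CPM on average. Per kilobase of transcript the highest were Cd9, a tetraspanin of the cell surface, at 4152 CPM per kb, Lpl, the lipase that frees fatty acids from triglyceride, at 1367 CPM per kb, and Plet1, a surface protein of epithelium and alveolar macrophages, at 1076 CPM per kb. The lowest was Kcnn3, a calcium-activated potassium channel, at 7.06 CPM per kb. All CPM values here and below are scaled by TMM, a correction for the make-up of each library. Over the 16 libraries the ratio of the highest to the lowest value was under 2 for 9 genes and at least 3 for 6 genes, from 1.34 for Csf2rb to 5.88 for Car4, 5.7 for Krt19 and 4.8 for Bhlhe40.

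**Figure D1:**
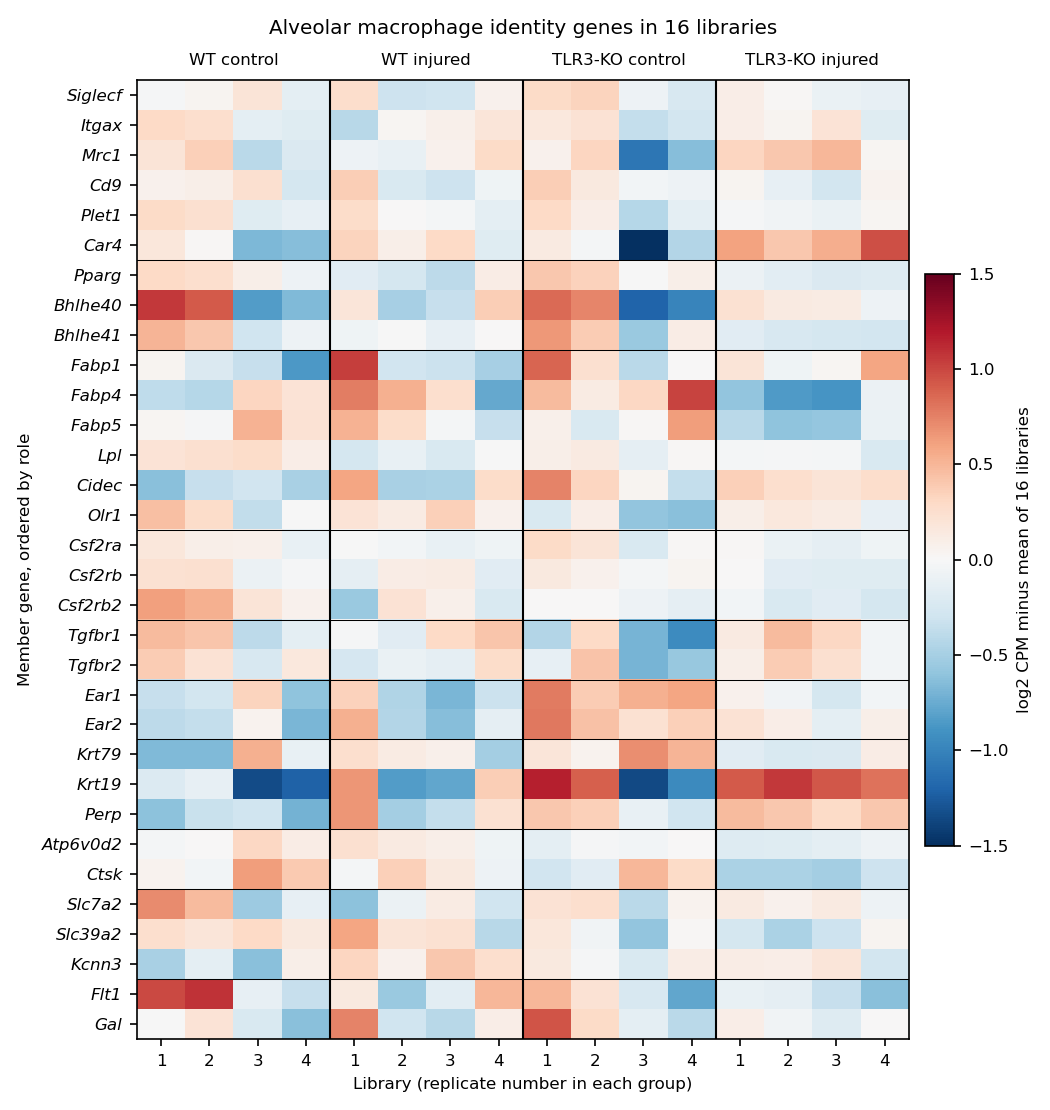
The log2 CPM of each of the 32 genes (rows, ordered by role) in each library (columns, by group and replicate number) minus that gene's mean over the 16 libraries, on a colour scale that ends at -1.5 and 1.5. Controls 1 and 2 differ from controls 3 and 4 in both genotypes, most clearly for Bhlhe40 and Krt19, and the 4 TLR3-KO injured libraries resemble each other.

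The mean log2 CPM over all 32 genes was 8.57 ± 0.17 (SD, n = 4) in WT controls, 8.59 ± 0.15 (SD, n = 4) in WT injured, 8.63 ± 0.28 (SD, n = 4) in TLR3-KO controls and 8.60 ± 0.04 (SD, n = 4) in TLR3-KO injured libraries. The differences between these means were 0.01 for pneumonia in WT, -0.03 for pneumonia in TLR3-KO, 0.05 for TLR3-KO against WT controls and 0.01 for TLR3-KO against WT injured, all smaller than the spread within groups. The spread itself differed between groups. The median coefficient of variation of the 32 genes was 21.5% in WT controls, 20.2% in WT injured, 22.5% in TLR3-KO controls and 8.51% in TLR3-KO injured libraries, against 19.0%, 17.9%, 21.0% and 10.7% over all 12455 genes tested.

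No identity gene passed the adjusted p threshold of 0.05 in any of the 5 comparisons by edgeR's quasi-likelihood test with Benjamini-Hochberg adjustment over all genes tested. For pneumonia in WT, 0 of 32 were called, where 0.0% of all genes were called, and an unadjusted p under 0.05 was found for 2 of 32 in the higher direction, against 6.27% of all genes, and for 3 in the lower, against 4.44%. For pneumonia in TLR3-KO, 0 of 32 were called against 1.09% of all genes, and an unadjusted p under 0.05 was found for 3 higher genes, against 12.1%, and 6 lower ones, against 11.9%. For TLR3-KO against WT controls, 0 of 32 were called against 0.658%, and an unadjusted p under 0.05 was found for 5 higher genes, against 9.59%, and 2 lower ones, against 10.2%. For TLR3-KO against WT injured, 0 of 32 were called against 0.602%, and an unadjusted p under 0.05 was found for 0 higher genes, against 8.25%, and 5 lower ones, against 7.79%. For the difference of the pneumonia responses between genotypes, 0 of 32 were called against 0.0%, and an unadjusted p under 0.05 was found for 0 higher genes, against 8.57%, and 2 lower ones, against 9.16%. With limma voom 0 of 32 were called in each comparison, against 0.0%, 0.851%, 0.859%, 0.578% and 0.0% of all genes in the order above. DESeq2 called 1, 5, 2, 0 and 0 of them in the same order, against 1.45%, 8.28%, 6.27%, 3.56% and 0.787% of all genes. The 1 for pneumonia in WT was Lpl, the 5 for pneumonia in TLR3-KO were Car4, Ctsk, Ear1, Fabp4 and Pparg, and the 2 between the control groups were Ear1 and Ear2.

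The calls depended on single libraries in 3 comparisons. Without TLR3-KO control 2, 6 genes were called for pneumonia in TLR3-KO (Car4, Mrc1, Tgfbr1 and Tgfbr2 higher, Fabp4 and Ctsk lower), against 9.83% of all genes. Without WT control 3, Ear1, Ear2 and Krt79 were called higher in TLR3-KO than WT controls, against 3.28% of all genes called. Without WT injured 4, Fabp4 was called lower in TLR3-KO than WT injured libraries, against 3.48% of all genes called. TLR3-KO control 4, the one without Xist, was also fitted as the only TLR3-KO control. That fit assumes that this lone library varies like the other groups, so its calls are not given.

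**Figure D2:**
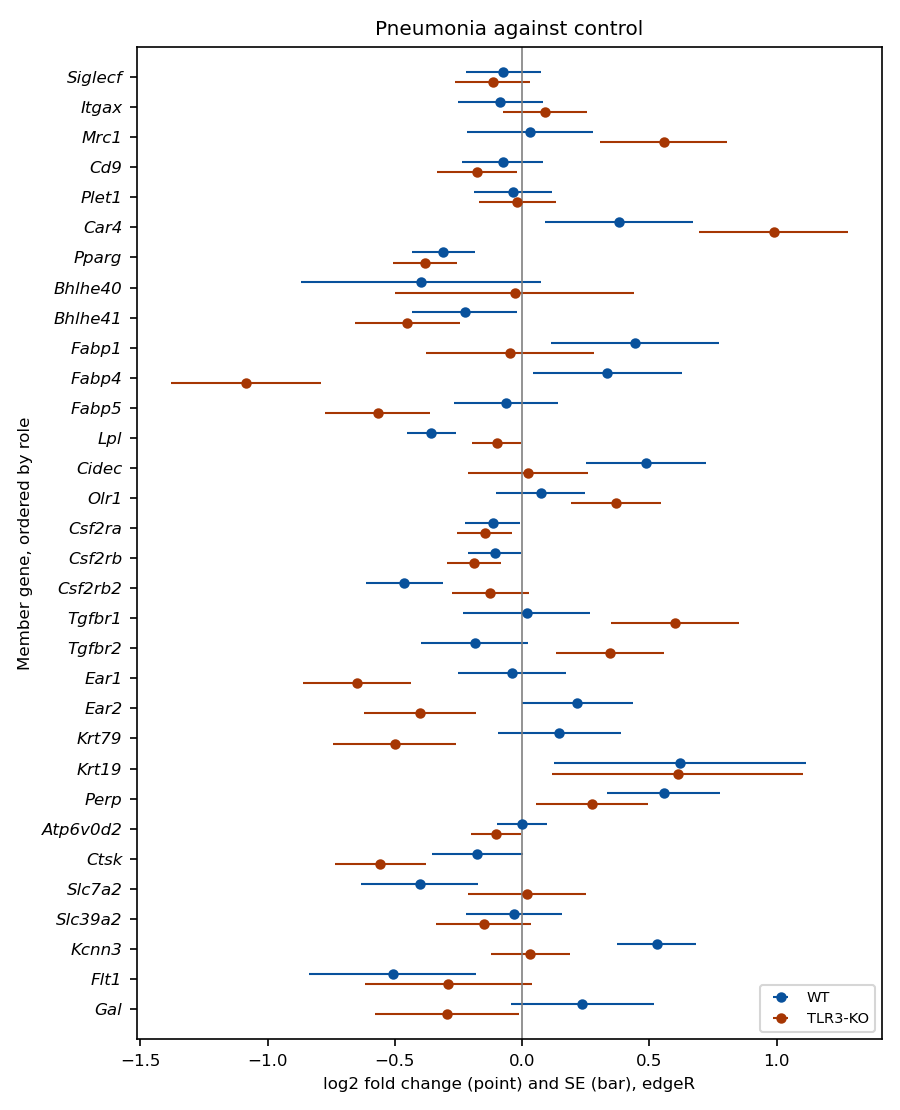
The log2 fold change of injured against control libraries (points) with its SE (bars) for each of the 32 genes in WT (blue) and TLR3-KO (brown), from edgeR. Pparg lies left of 0 in both genotypes, Fabp4 reaches -1.08 and Car4 0.99 in TLR3-KO, and most other points lie within 0.6 of 0.

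Pneumonia differences pointed the same way in both genotypes for 23 of 32 genes, 15 of them negative and 8 positive in both, while 44.3% of all genes tested had the same sign in both. The WT and TLR3-KO differences share no library, but they may not be independent. Deviations of same-numbered control libraries correlated at 0.478 to 0.602 between the genotypes. This count rests on the scaling: from differences of mean log2 CPM it was 22 of 32 with TMM and 17 of 32 with raw library totals, against 44.6% and 48.0% of all genes. Raw totals moved the median of all genes by 0.11 log2 units in the WT comparison, and 9 genes with small differences there changed sign, which were Siglecf, Itgax, Cd9, Plet1, Fabp5, Csf2ra, Csf2rb, Ear1 and Slc39a2. The median log2 fold change of the 32 genes for pneumonia was -0.04 in WT, against 0.01 for all genes, and -0.11 in TLR3-KO, against -0.01 for all genes.

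Some genes had groups that did not overlap. For pneumonia in WT this was Lpl, the 1 lower gene of 32 against 2.3% of all genes, with 0 higher ones against 2.02%. For pneumonia in TLR3-KO Car4 was higher, 1 of 32 against 6.58%, and Pparg, Fabp4, Ear1, Ear2 and Ctsk were lower in injured libraries, 5 of 32 against 6.32%. Between the control groups Ear1 and Ear2 were higher in TLR3-KO, 2 of 32 against 3.6%, and Csf2rb2 was lower, 1 of 32 against 4.05%. Between the injured groups Car4 and Krt19 were higher in TLR3-KO, 2 of 32 against 6.33%, and Bhlhe41, Atp6v0d2 and Ctsk were lower, 3 of 32 against 5.03%.

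**Figure D3:**
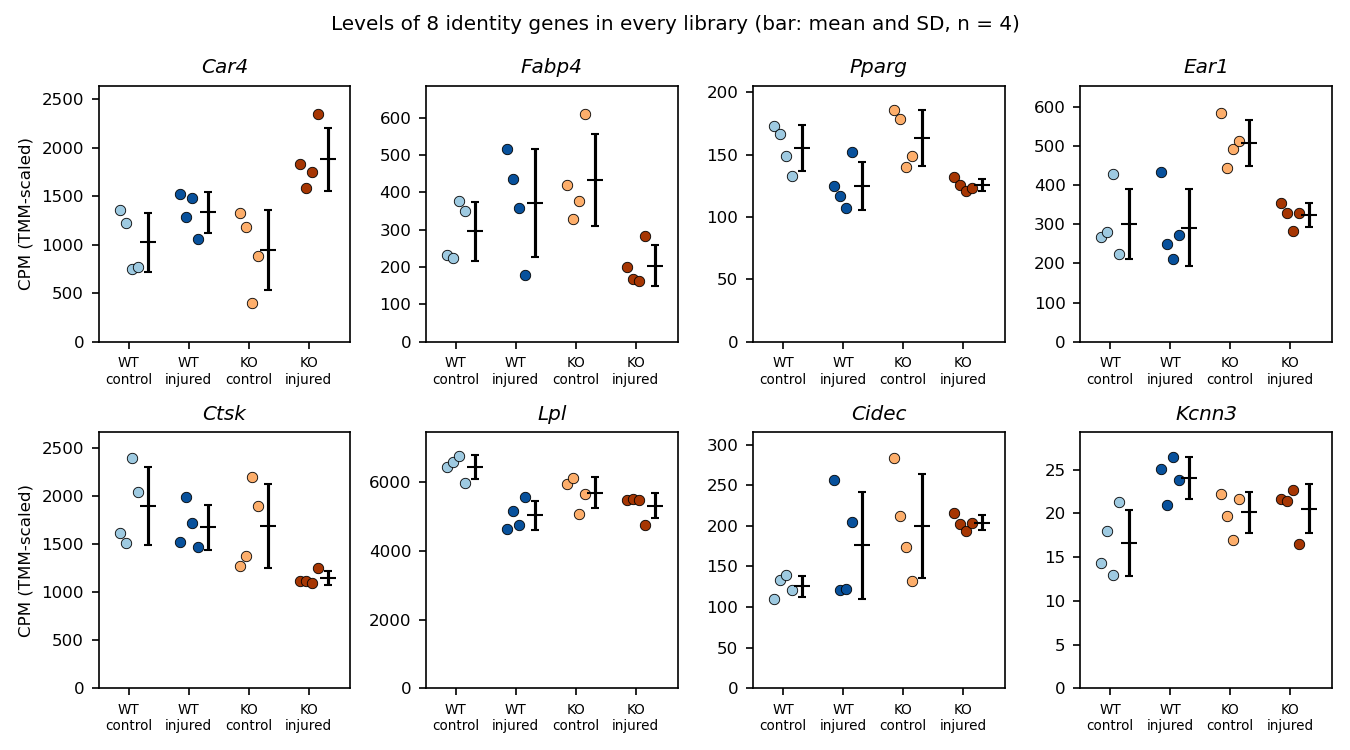
CPM of 8 identity genes in each of the 16 libraries (points, by group) with the mean and SD of each group of 4 beside them, each axis starting at 0. The TLR3-KO injured points of Car4 lie above all TLR3-KO control points, those of Fabp4, Pparg, Ear1 and Ctsk lie below them, and the WT injured points of Lpl lie below all WT control points.

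Among the surface markers, Car4, a carbonic anhydrase anchored to the outer membrane, differed most. In the order of replicates 1 to 4 it was at 1355, 1220, 754 and 774 CPM in WT controls, 1522, 1284, 1478 and 1058 CPM in WT injured, 1326, 1182, 399 and 887 CPM in the TLR3-KO controls and 1832, 1591, 1755 and 2345 CPM in TLR3-KO injured libraries. All 4 TLR3-KO injured libraries were above every other library, and TLR3-KO control 3 was the lowest of all. For pneumonia the log2 fold change was 0.99 (SE 0.29, edgeR adjusted p = 0.085) in TLR3-KO and 0.38 (SE 0.29, edgeR adjusted p = 0.644) in WT, and the difference between the responses was 0.61 (SE 0.41, edgeR adjusted p = 0.408). Against controls 3 and 4 alone the TLR3-KO difference was 1.55 with an edgeR adjusted p of 0.00284, and these controls include the lowest library. Against controls 1 and 2 alone it was 0.60 with an edgeR adjusted p of 0.121, not called.

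Cd9 was at 5276, 5368, 5964 and 4217 CPM in WT controls, 6538, 4290, 4075 and 4838 CPM in WT injured, 6500, 5605, 4894 and 4769 CPM in the TLR3-KO controls and 5198, 4624, 4185 and 5237 CPM in TLR3-KO injured libraries. The 4 groups overlapped, and the highest library was WT injured 1. Plet1 was at 2196, 2120, 1588 and 1657 CPM in WT controls, 2179, 1816, 1758 and 1622 CPM in WT injured, 2219, 1931, 1344 and 1624 CPM in the TLR3-KO controls and 1786, 1730, 1680 and 1831 CPM in TLR3-KO injured libraries. The groups again overlapped, and within each control group libraries 1 and 2 were above 3 and 4. Siglecf, a sialic acid-binding receptor that sorts alveolar macrophages from other lung macrophages, ranged from 278 to 432 CPM over all libraries. Itgax, the CD11c integrin chain, ranged from 500.0 to 816 CPM. Mrc1, the mannose receptor, ranged from 264 to 791 CPM, and its log2 fold change for pneumonia in TLR3-KO was 0.56 (SE 0.25, edgeR adjusted p = 0.189).

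Among the transcription factors, Pparg was lower on average after pneumonia in both genotypes, without passing edgeR's test in either. It was at 173, 167, 149 and 133 CPM in WT controls, 125, 117, 107 and 152 CPM in WT injured, 186, 179, 140 and 149 CPM in the TLR3-KO controls and 132, 126, 121 and 123 CPM in TLR3-KO injured libraries. All TLR3-KO injured libraries were below all TLR3-KO controls, while WT injured 4 lay within the range of the WT controls. These differences were a log2 fold change of -0.31 in WT (SE 0.12, edgeR adjusted p = 0.396) and -0.38 in TLR3-KO (SE 0.12, edgeR adjusted p = 0.105). DESeq2 called the TLR3-KO difference, with a log2 fold change of -0.38 and an adjusted p of 0.0468, and edgeR called the WT difference against controls 1 and 2 alone. Against controls 3 and 4 alone edgeR did not call the WT difference, and it called the TLR3-KO difference against neither pair. Controls 1 and 2 were above controls 3 and 4 in both genotypes, with ratios of their means of 1.21 in WT and 1.27 in TLR3-KO.

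Bhlhe41, a repressor that with Bhlhe40 supports self-renewal of alveolar macrophages, was at 74.3, 69.1, 42.5 and 49.6 CPM in WT controls, 49.8, 51.7, 47.8 and 52.2 CPM in WT injured, 81.9, 68.1, 35.3 and 56.4 CPM in the TLR3-KO controls and 46.3, 44.1, 43.5 and 42.9 CPM in TLR3-KO injured libraries. Injured libraries lay in a narrow band inside the span of their controls, and the TLR3-KO band was just below the WT band. Its log2 fold change between the injured groups was -0.19 (SE 0.21, edgeR adjusted p = 0.667). Bhlhe40 ranged from 324 to 1555 CPM over all libraries, and all of that range lay within the controls.

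The lipid-handling genes held the largest difference of any of the 32 genes. Fabp4, a fatty acid-binding protein and a textbook target of PPARG, was at 232, 224, 377 and 349 CPM in WT controls, 516, 437, 359 and 178 CPM in WT injured, 419, 328, 376 and 611 CPM in the TLR3-KO controls and 201, 168, 164 and 284 CPM in TLR3-KO injured libraries. Every TLR3-KO injured library was below every TLR3-KO control, while the WT groups overlapped and WT injured spanned from 178 to 516 CPM. For pneumonia the log2 fold change was -1.08 (SE 0.30, edgeR adjusted p = 0.0714) in TLR3-KO and 0.33 (SE 0.29, edgeR adjusted p = 0.698) in WT. The difference between the responses was -1.42 (SE 0.42, edgeR adjusted p = 0.237), the lowest adjusted p of the 32 genes in that comparison, and the difference between the injured groups was -0.87 (SE 0.29, edgeR adjusted p = 0.191).

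Fabp5, its close relative with 61.9% of aligned coding bases identical, was at 813, 791, 1149 and 927 CPM in WT controls, 1147, 964, 781 and 630 CPM in WT injured, 838, 683, 808 and 1235 CPM in the TLR3-KO controls and 602, 527, 533 and 744 CPM in TLR3-KO injured libraries. The TLR3-KO injured libraries were low, but number 4 lay above TLR3-KO control 2, so these groups overlapped. Its log2 fold change was -0.57 (SE 0.21, edgeR adjusted p = 0.128) for pneumonia in TLR3-KO and -0.55 (SE 0.21, edgeR adjusted p = 0.223) between the injured groups. Fabp1, the third of these proteins and the one with the direct repeat in its promoter, ranged from 63.1 to 236 CPM. Its log2 fold change for pneumonia was 0.44 (SE 0.33, edgeR adjusted p = 0.637) in WT and -0.05 (SE 0.33, edgeR adjusted p = 0.94) in TLR3-KO.

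Lpl was at 6462, 6589, 6777 and 5972 CPM in WT controls, 4654, 5157, 4772 and 5574 CPM in WT injured, 5955, 6118, 5078 and 5650 CPM in the TLR3-KO controls and 5499, 5512, 5479 and 4773 CPM in TLR3-KO injured libraries. The WT injured libraries were all below the WT controls, and the TLR3-KO groups overlapped. For pneumonia its log2 fold change was -0.36 (SE 0.10, edgeR adjusted p = 0.206) in WT and -0.10 (SE 0.10, edgeR adjusted p = 0.523) in TLR3-KO. DESeq2 gave the WT difference an adjusted p of 0.00566, with a log2 fold change of -0.37. The difference between the responses was 0.26 (SE 0.14, edgeR adjusted p = 0.322).

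Cidec, a protein of lipid droplet growth, was at 110, 133, 139 and 121 CPM in WT controls, 256, 121, 122 and 205 CPM in WT injured, 283, 212, 174 and 132 CPM in the TLR3-KO controls and 216, 202, 194 and 203 CPM in TLR3-KO injured libraries. WT controls were low as a group, though TLR3-KO control 4 and WT injured 2 and 3 lay among them. The log2 fold change between the control groups was 0.68 (SE 0.24, edgeR adjusted p = 0.145), and with TLR3-KO control 4 as the only TLR3-KO control it was 0.07. Olr1, a receptor for oxidised LDL, ranged from 364 to 763 CPM, with a log2 fold change of -0.42 (SE 0.18, edgeR adjusted p = 0.208) between the control groups.

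Of the GM-CSF receptor genes, Csf2ra, the ligand-binding chain, ranged from 779 to 1117 CPM and Csf2rb, the shared signalling chain, from 761 to 1021 CPM over the 16 libraries. Csf2rb2, the mouse copy of the beta chain that serves IL-3, was at 363, 344, 272 and 248 CPM in WT controls, 162, 276, 250 and 203 CPM in WT injured, 238, 239, 226 and 216 CPM in the TLR3-KO controls and 231, 203, 211 and 198 CPM in TLR3-KO injured libraries. WT controls were the highest group and did not overlap the TLR3-KO controls, while WT injured 2 and 3 reached into the WT control range. Its log2 fold change was -0.46 (SE 0.15, edgeR adjusted p = 0.281) for pneumonia in WT and -0.42 (SE 0.15, edgeR adjusted p = 0.163) between the control groups. Against controls 1 and 2 alone the WT difference was -0.67 with an edgeR adjusted p of 0.0229, and against controls 3 and 4 alone it was -0.22 with an edgeR adjusted p of 0.601, not called.

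Of the TGF-beta receptor genes, Tgfbr1, the kinase that phosphorylates SMAD proteins, ranged from 156 to 419 CPM and Tgfbr2, the ligand-binding kinase, from 249 to 540 CPM. Their lowest values were in TLR3-KO controls 3 and 4. For pneumonia in TLR3-KO the log2 fold change was 0.60 (SE 0.25, edgeR adjusted p = 0.169) for Tgfbr1 and 0.34 (SE 0.21, edgeR adjusted p = 0.319) for Tgfbr2. In WT it was 0.02 (SE 0.25, edgeR adjusted p = 0.984) and -0.19 (SE 0.21, edgeR adjusted p = 0.773).

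The ribonucleases Ear1 and Ear2, secreted proteins first known from eosinophils that alveolar macrophages also make, had the lowest adjusted p between the control groups. Ear1 was at 267, 280, 429 and 223 CPM in WT controls, 433, 249, 211 and 272 CPM in WT injured, 585, 444, 492 and 513 CPM in the TLR3-KO controls and 355, 328, 283 and 330 CPM in TLR3-KO injured libraries. Ear2 was at 227, 233, 309 and 185 CPM in WT controls, 430, 219, 191 and 270 CPM in WT injured, 517, 402, 349 and 380 CPM in the TLR3-KO controls and 347, 318, 268 and 316 CPM in TLR3-KO injured libraries. For both genes the 4 TLR3-KO controls were above all WT controls and above all TLR3-KO injured libraries, and in the WT groups WT control 3 and WT injured 1 were the highest.

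Between the control groups the log2 fold change was 0.76 (SE 0.21) for Ear1 and 0.79 (SE 0.22) for Ear2, each with an edgeR adjusted p of 0.0881. DESeq2 gave each an adjusted p of 0.0207. For pneumonia in TLR3-KO it was -0.65 (SE 0.21, edgeR adjusted p = 0.106) for Ear1 and -0.40 (SE 0.22, edgeR adjusted p = 0.269) for Ear2, and in WT it was -0.04 (SE 0.21, edgeR adjusted p = 0.957) and 0.22 (SE 0.22, edgeR adjusted p = 0.746). The copies share part of their transcripts, as given above, so their reads may be split between them. The 5 eosinophil markers summed to at most 1.47 CPM in any library, with Epx at 0.

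**Figure D4:**
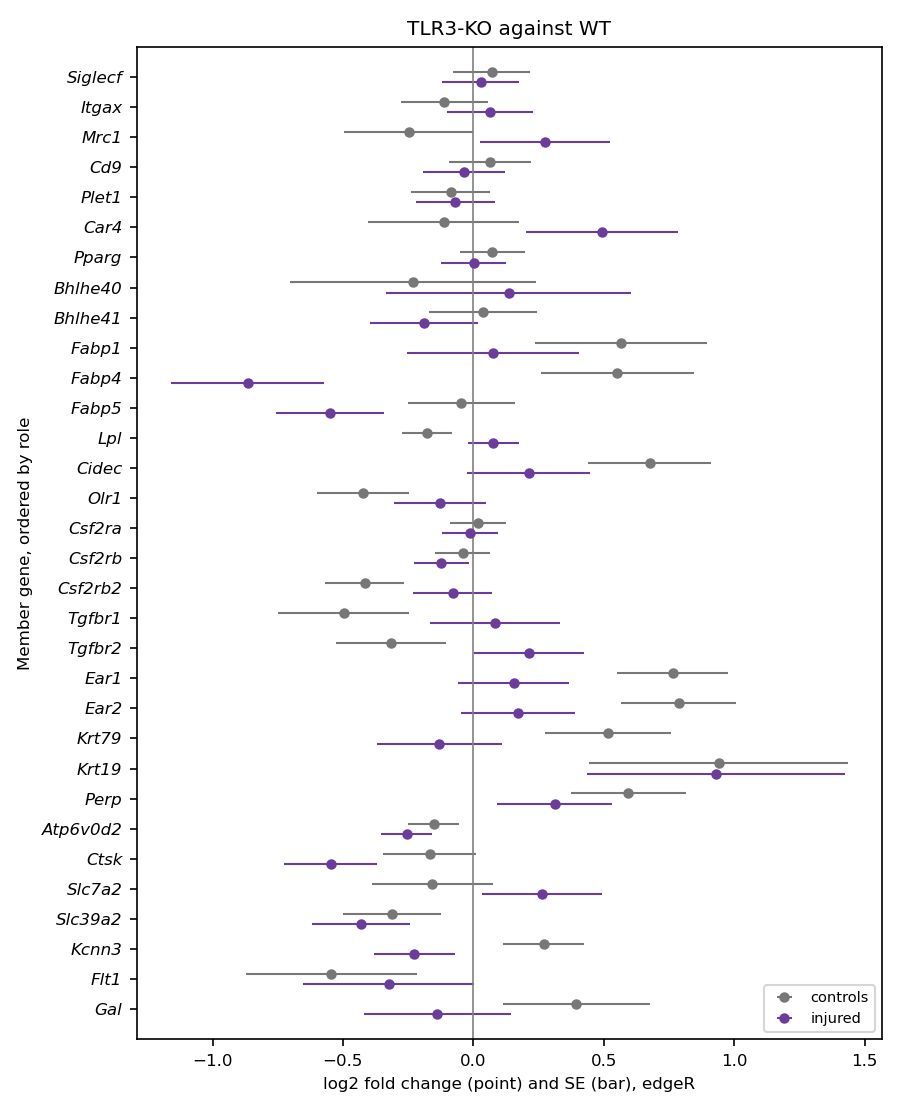
The log2 fold change of TLR3-KO against WT (points) with its SE (bars) for each of the 32 genes among controls (grey) and among injured libraries (purple), from edgeR. Ear1 and Ear2 lie at 0.76 and 0.79 among controls, and Fabp4 lies at 0.55 among controls and at -0.87 among injured libraries.

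Of the epithelial-type genes that mark alveolar macrophages, Krt19, an intermediate filament keratin, was at 226, 238, 103 and 112 CPM in WT controls, 412, 145, 151 and 337 CPM in WT injured, 584, 483, 102 and 134 CPM in the TLR3-KO controls and 494, 542, 496 and 456 CPM in TLR3-KO injured libraries. The TLR3-KO injured libraries were all above the WT injured ones, whereas the TLR3-KO controls split into high libraries 1 and 2 and low libraries 3 and 4. Between the injured groups its log2 fold change was 0.93 (SE 0.50, edgeR adjusted p = 0.362). Krt8 and Krt18, keratins of simple epithelium, reached at most 9.45 and 4.69 CPM, both in TLR3-KO injured 3, where Krt19 was at 496 CPM.

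Markers of alveolar epithelium differed between the same injured groups. Of 9 markers of alveolar type 2 cells 3 were called higher in TLR3-KO than WT injured libraries, and of 5 of type 1 cells 1 was, against 0.602% of all genes called in either direction. These were the surfactant protein genes Sftpa1, Sftpb and Sftpd and the water channel gene Aqp5. Without WT control 2, or any one of replicates 1, 2 and 3 of either injured group, only Sftpb of these 4 was called. The 9 type 2 markers summed to 98.1 to 123 CPM in WT injured and 104 to 146 CPM in TLR3-KO injured libraries. Abca3 held 48.2% of their sum, and Pdpn 76.9% of that of the 5 type 1 markers. Without Pdpn the type 1 markers summed to 4.1 to 6.84 CPM in WT injured and 11.3 to 18.7 CPM in TLR3-KO injured libraries. Of the 9 and the 5 markers, 4 each were higher in TLR3-KO without overlap, against 6.33% of all genes. The part of epithelial cells in the difference of Krt19 was not tested. Krt79 ranged from 280 to 718 CPM and Perp, a desmosome-associated membrane protein, from 76.1 to 196 CPM. Perp had a log2 fold change of 0.56 (SE 0.22, edgeR adjusted p = 0.393) for pneumonia in WT and 0.59 (SE 0.22, edgeR adjusted p = 0.169) between the control groups.

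Of the lysosomal genes, Ctsk, a cathepsin that degrades collagen, was at 1616, 1516, 2397 and 2045 CPM in WT controls, 1526, 1988, 1716 and 1471 CPM in WT injured, 1272, 1380, 2193 and 1898 CPM in the TLR3-KO controls and 1121, 1118, 1092 and 1253 CPM in TLR3-KO injured libraries. TLR3-KO injured libraries were the lowest of all 16, and controls 3 and 4 were the highest of each control group. The log2 fold change of Ctsk was -0.56 (SE 0.18, edgeR adjusted p = 0.102) for pneumonia in TLR3-KO and -0.55 (SE 0.18, edgeR adjusted p = 0.172) between the injured groups. In a fit of the injured groups alone the latter had an edgeR adjusted p of 0.0456, where 1.28% of all genes were called.

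Atp6v0d2, a subunit of the proton pump that acidifies lysosomes, was at 1522, 1561, 1940 and 1684 CPM in WT controls, 1847, 1718, 1654 and 1489 CPM in WT injured, 1414, 1535, 1519 and 1566 CPM in the TLR3-KO controls and 1363, 1380, 1404 and 1473 CPM in TLR3-KO injured libraries. The injured groups did not overlap, with TLR3-KO lower, and the distance from the highest TLR3-KO to the lowest WT library was small. There the log2 fold change was -0.26 (SE 0.10, edgeR adjusted p = 0.232).

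Of the transporters and the channel, Kcnn3 was at 14.3, 18, 13 and 21.3 CPM in WT controls, 25.1, 20.9, 26.4 and 23.8 CPM in WT injured, 22.2, 19.7, 17 and 21.6 CPM in the TLR3-KO controls and 21.6, 21.4, 22.7 and 16.5 CPM in TLR3-KO injured libraries. WT injured libraries were high, but WT control 4 lay within their range. The log2 fold change for pneumonia was 0.53 (SE 0.16, edgeR adjusted p = 0.236) in WT and 0.03 (SE 0.15, edgeR adjusted p = 0.91) in TLR3-KO, and the difference between the responses was -0.50 (SE 0.22, edgeR adjusted p = 0.263). Slc7a2, a carrier of cationic amino acids, ranged from 247 to 621 CPM, and Slc39a2, a zinc importer, from 231 to 525 CPM. Slc39a2 had a log2 fold change of -0.43 (SE 0.19, edgeR adjusted p = 0.283) between the injured groups.

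Flt1, a VEGF receptor, ranged from 31.3 to 114 CPM and Gal, the neuropeptide galanin, from 32.8 to 97.6 CPM. Neither had an unadjusted p under 0.05 in any comparison. The 7 endothelial markers summed to between 35.1 CPM (TLR3-KO control 1) and 85.7 CPM (WT injured 2), and Vwf made up 98.3% of their summed level. Without Vwf they summed to at most 2.8 CPM, and Cdh5, Kdr and Tek reached at most 0.11, 0.253 and 0.0271 CPM. The part of endothelial cells in the level of Flt1 was not tested.

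Other genes of the same pathways were taken from lists. Of 12 further genes of GM-CSF signalling that passed the filter, 1 was called in any comparison: Socs2, a feedback inhibitor induced by STAT5, was higher in TLR3-KO than WT controls by 0.77 log2 units (SE 0.15, edgeR adjusted p = 0.0359), where 0.658% of all genes were called. It was at 12.9, 11.7, 11.2 and 11.1 CPM in WT controls, and the TLR3-KO controls, at 22.2, 21.5, 18.4 and 17.9 CPM, were all higher. For pneumonia in WT, where the injured libraries were at 32.8, 18.5, 21.4 and 20.8 CPM, its log2 fold change was 0.99 (SE 0.15, edgeR adjusted p = 0.0501). The call between the control groups was lost when any one of 9 of the 16 libraries was left out (WT controls 1, 2 and 4, TLR3-KO controls 1 and 3 and each TLR3-KO injured library), with log2 fold changes from 0.71 to 0.82 and edgeR adjusted p from 0.00212 to 0.127 over all 16, and in a fit of the control groups alone (edgeR adjusted p = 0.121). Csf2, which encodes GM-CSF, had no more than 7 counts in any library and was not tested.

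Of 20 tested genes of TGF-beta signalling, 1 was called in any comparison. Tgif1, a corepressor of SMAD proteins, fell by 0.54 log2 units with pneumonia in TLR3-KO (SE 0.11, edgeR adjusted p = 0.0367), from 130, 134, 118 and 121 CPM in controls to 94.5, 77.4, 77.7 and 95.3 CPM in injured libraries, which did not overlap. Of all genes, 1.09% were called there. The call was lost without any one of 8 of the 16 libraries (WT control 2, TLR3-KO controls 1, 3 and 4 and each TLR3-KO injured library), with log2 fold changes from -0.59 to -0.50 and edgeR adjusted p from 0.0261 to 0.128 over all 16. It was also lost with no filter on low counts (edgeR adjusted p = 0.057), in a fit of the TLR3-KO groups alone (edgeR adjusted p = 0.0688) and with the replicate block (edgeR adjusted p = 0.0712). Tgfb1, the ligand, was at a mean of 380 ± 144 CPM (SD, n = 4) in WT controls, 292 ± 52.5 CPM (SD, n = 4) in WT injured, 384 ± 154 CPM (SD, n = 4) in TLR3-KO controls and 371 ± 31.5 CPM (SD, n = 4) in TLR3-KO injured libraries.

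Of 19 tested partners and targets of PPARG, 1 was called in any comparison. Pdk4, a kinase that shuts down pyruvate oxidation, was lower in TLR3-KO than WT injured libraries by a log2 fold change of -0.86 (SE 0.15, edgeR adjusted p = 0.0189), at 16.6, 18.2, 15.3 and 19.2 CPM against 34.1, 31.4, 33.8 and 26.3 CPM, where 0.602% of all genes were called. Leaving out any one of replicates 1, 2 and 3 of either injured group ended the call, with log2 fold changes from -0.93 to -0.81 and edgeR adjusted p from 0.00841 to 0.0959 over all 16 libraries left out in turn, as did the replicate block (edgeR adjusted p = 0.0594). Its log2 fold change for pneumonia in TLR3-KO was -0.60 (SE 0.15, edgeR adjusted p = 0.0552). The median log2 fold change of the 19 genes was -0.12 for pneumonia in TLR3-KO and 0.00 between the injured groups. Of 10 tested further markers of alveolar macrophages, 0 were called in any comparison. Cdh1, the adhesion protein E-cadherin, had the lowest adjusted p of them between the injured groups, with a log2 fold change of 1.02 (SE 0.32, edgeR adjusted p = 0.154). Markers of alveolar epithelium also differed between these groups, as given above, and the part of epithelial cells in the difference of Cdh1 was not tested.

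The controls were not uniform for the identity genes. In both genotypes controls 1 and 2 did not overlap controls 3 and 4 for 20 of 32 genes, against 45.1% of all genes tested. They were higher in controls 1 and 2 for 18 of 32, against 22.7% of all genes, and lower for Krt79 and Ctsk, 2 of 32, against 22.4%. The ratio of the mean of controls 1 and 2 to that of 3 and 4 was 3.34 in WT and 3.7 in TLR3-KO for Bhlhe40, 2.16 and 4.52 for Krt19, 2.42 and 1.8 for Flt1, and 1.69 and 1.95 for Car4. The labels give no difference between these libraries. The comparisons were also made with each pair of controls alone.

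**Figure D5:**
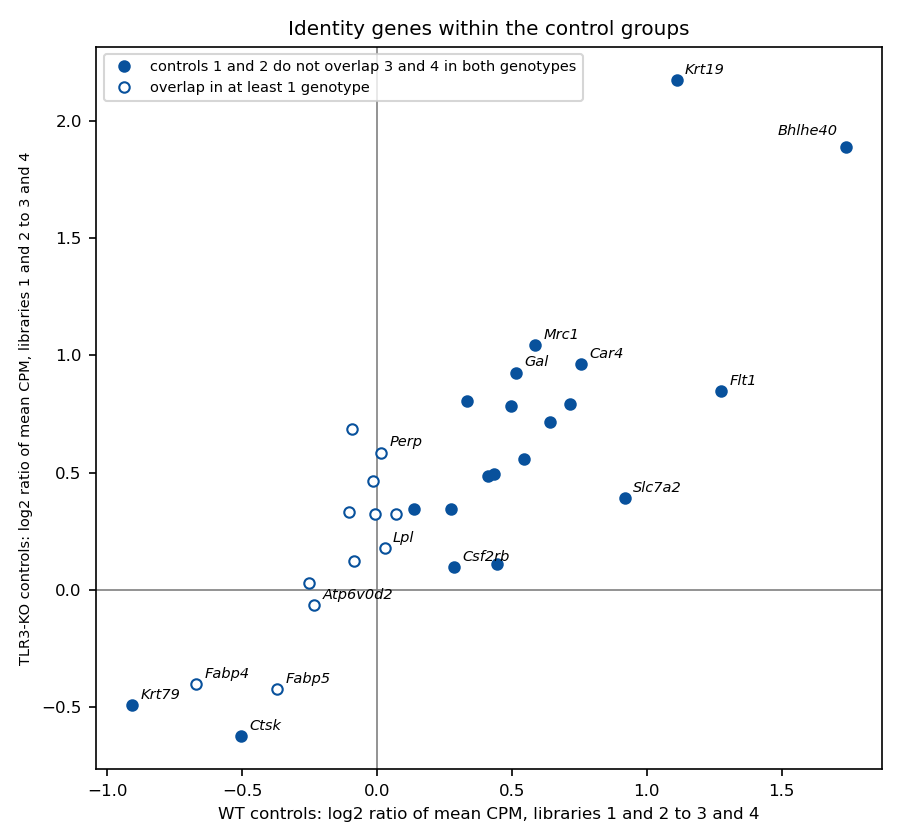
For each of the 32 genes, the log2 ratio of mean CPM in controls 1 and 2 to that in controls 3 and 4, in WT (x axis) and in TLR3-KO (y axis). Filled points are the 20 genes whose libraries do not overlap in either genotype, and most of them lie to the upper right, with Krt79 and Ctsk at the lower left.

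Counts of called genes moved with the controls used. Against controls 1 and 2 alone, pneumonia in WT had 9 of 32 genes called (2 higher, 7 lower), against 12.9% of all genes, namely Pparg, Bhlhe40, Bhlhe41, Lpl, Csf2rb2, Krt79, Slc7a2, Kcnn3 and Flt1, and pneumonia in TLR3-KO had 1, Bhlhe41, against 0.654%. Against controls 3 and 4 alone, pneumonia in TLR3-KO had 11 of 32 called (7 higher, 4 lower), against 32.1% of all genes, namely Mrc1, Car4, Bhlhe40, Fabp4, Fabp5, Olr1, Tgfbr1, Tgfbr2, Krt79, Krt19 and Ctsk, and pneumonia in WT had 0, against 0.493%. The difference of the mean log2 CPM over all 32 genes for pneumonia in TLR3-KO was -0.26 against controls 1 and 2 and 0.21 against controls 3 and 4. Bhlhe40 was thus called lower against one pair of controls in WT and higher against the other pair in TLR3-KO. One injured library also stood out: WT injured 1 was the highest of its group for 17 of 32 genes and the lowest for 5, against 31.1% and 34.1% of all genes tested.

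The summed levels of markers of other cells also differed between the groups. The 9 neutrophil markers summed to 49.3 to 93.4 CPM in WT controls, 81.0 to 263 CPM in WT injured, 62.8 to 92.5 CPM in the TLR3-KO controls and 107 to 178 CPM in TLR3-KO injured libraries. Of the 7 neutrophil markers that passed the filter, 1 was called higher in TLR3-KO than WT injured libraries (edgeR adjusted p = 0.035). There 0.602% of all genes were called. The 5 erythroid genes summed to 12.6 to 147 CPM in WT controls, 323 to 676 CPM in WT injured, 42.0 to 462 CPM in the TLR3-KO controls and 70.0 to 189 CPM in TLR3-KO injured libraries. The 9 markers of interstitial macrophages summed to 11.4 to 20.8 CPM in WT controls, 11.8 to 21.4 CPM in WT injured, 17 to 36.1 CPM in the TLR3-KO controls and 15.8 to 19.7 CPM in TLR3-KO injured libraries. In the comparison of the control groups, where Ear1 and Ear2 had the lowest adjusted p of the 32 genes, the 6 of these markers that passed the filter had a median log2 fold change of 1.06, with 6 of 6 positive and 0 called. For pneumonia in TLR3-KO their median was -0.97, with 6 of 6 negative and 0 called. The 7 T cell markers summed to 0.936 to 4.78 CPM, 2.04 to 4.27 CPM, 1.33 to 9.98 CPM and 1.38 to 3.74 CPM in the same order of groups, with a median log2 fold change of 1.36 between the control groups and -1.46 for pneumonia in TLR3-KO, and 0 of 7 called in either. Among 5 tested dendritic cell markers, 1 was called lower for pneumonia in TLR3-KO (edgeR adjusted p = 0.0377), against 1.09% of all genes called. Of the 9 recruited monocyte markers 8 had positive log2 fold changes for pneumonia in WT, with a median of 0.97 and 0 called. In TLR3-KO 6 of the 9 were positive, with a median of 0.47 and 0 called. They summed, mostly through Fn1, to 307 to 870 CPM in WT controls and 325 to 968 CPM in WT injured libraries. The sums were 315 to 914 CPM in the TLR3-KO controls and 717 to 1409 CPM in TLR3-KO injured libraries. The part of these cells in the differences of the identity genes was not tested.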

How the data were processed

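Per the labels' protocols, RNA of lavage macrophages was made into TruSeq mRNA libraries and read from both ends over 50 bases. The submitters' processing notes name FastQC 0.11.3, TopHat2 2.0.13, Bowtie2 2.2.1, the mm10 build, Cufflinks and Cuffdiff 2.1.1. The table deposited by the authors holds whole-number counts per gene symbol from HTSeq, as its name states, without normalization. The counter's version, annotation and strand setting are not given in the sources used here.

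Genes with too few counts were removed by filterByExpr (minimum count 10 on the groups), which kept 12455 genes and dropped 10704. Scaling was by TMM, with factors from 0.8965 to 1.0664, and the model was fitted with edgeR 4.0.16 in R 4.3.3 (quasi-likelihood, 1 coefficient per group, all 16 libraries), with Benjamini-Hochberg adjustment over all genes tested and a threshold of 0.05. Robust estimation of the spread was chosen after the numbers of calls over all genes with and without it had been seen. It was chosen because it gave the counts of an earlier analysis of these data. Without it 0 of the 32 genes were called in any comparison as well. The shares of all genes called were then 0.0161%, 1.54%, 0.699%, 0.618% and 0.0%, in the order of comparisons used above. The SE is the log2 fold change divided by the square root of F. The spread over all genes (biological coefficient of variation) was 0.2376. DESeq2 1.42.0 and limma 3.58.1 (voom) served as alternatives, as did other scalings, filters, sets of libraries and a replicate block. The effect of these settings on the called genes of the pathway and epithelial lists was computed after their values had been seen. The fit was tested on simulated data whose spread was set below the 0.2376 of these data and which held no split of the controls. That test cannot show how well the fit calls genes at the spread seen here.

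Gene positions, transcript lengths and coding sequence are from GENCODE M21, and promoters from RefSeq (GRCm38.p6). Of the 32 genes, values in every library are given for those whose groups did not overlap in a comparison, the 3 with the lowest p in each comparison and the 3 highest per kilobase, 16 in all, and the others by their range. The 32 genes and all lists were chosen with earlier results of these data known.

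Titles number the replicates. Deviations from the group means of libraries with the same number correlated at 0.478 to 0.602 between the control groups, at -0.068 to 0.341 between TLR3-KO injured and control, at -0.294 to -0.121 between WT injured and control, and at -0.341 to 0.077 between the injured groups. By the criterion of every pair above 0.1, the numbers pair libraries only between the control groups. The main fit used no pairing there, and the replicate block was set over all 4 groups, so no fit paired the control groups alone. Within each group, no library repeated another (chi-square per degree of freedom 8.43 to 322).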

Additional observations from a re-analysis of the deposited data

Results flagged for a closer look

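Of 132 sets of 4 libraries checked (the 32 genes and their mean in each group), 4 held a library far from the other 3, by Dixon's criterion for the gap as a share of the range; chance gives about 1 in 20. Fabp1 was at 236 CPM in WT injured 1, against 94.1, 92.1 and 81.3 CPM in WT injured 2, 3 and 4, and that library was also the highest of its group for 17 of the 32 genes. In the TLR3-KO injured group, Lpl was at 4773 CPM in library 4, against 5499, 5512 and 5479 CPM in the others. Csf2rb was at 865 CPM in TLR3-KO injured 1, against 768, 761 and 764 CPM. Krt79 was at 476 CPM in TLR3-KO injured 4, against 393, 378 and 381 CPM.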

How the results depend on the processing

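For pneumonia in WT, 0 of 32 genes were called, against 1 with DESeq2 (1.45% of all genes) and 9 with controls 1 and 2 only (12.9%). For pneumonia in TLR3-KO, 0 became 5 with DESeq2 (8.28% of all genes). It became 1 with controls 1 and 2 only (0.654%) and 11 with controls 3 and 4 only (32.1%). The difference of the mean over the 32 genes moved from -0.03 to -0.26 and 0.21 with these pairs of controls. For TLR3-KO against WT controls 0 became 2 with DESeq2 (6.27% of all genes). Between the injured groups 0 became 1 when only these groups were fitted (1.28% of all genes). Leaving out 1 library at a time gave 0 to 0 called genes for pneumonia in WT, 0 to 6 in TLR3-KO, 0 to 3 between controls, 0 to 1 between injured groups and 0 to 0 for the difference of the responses; the differences of the mean over all 32 genes ranged from -0.06 to 0.06, -0.13 to 0.07, -0.04 to 0.16, -0.02 to 0.08 and -0.15 to 0.05. The numbers of called genes changed without TLR3-KO control 2, WT control 3 and WT injured 4. There 9.83%, 3.28% and 3.48% of all genes were called, and the cause was not tested. The replicate block gave 0 called of the 32 genes in all 5 comparisons, against 0.0241%, 0.0883%, 0.249%, 0.169% and 0.0% of all genes in the same order. Of the refitted log2 fold changes of single named genes, in the comparisons that named them, 413 kept their side of the threshold, 21 passed it and 0 changed sign; raw library totals were not refitted, and signs that differ with them for pneumonia in WT are given above.

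Depth was high, so the spread between 4 libraries, not counting error, limits these comparisons; Kcnn3 is the member with the fewest counts. Ear1, Ear2, Csf2rb, Csf2rb2, Fabp5 and Cd9 share the most sequence with other genes. The age, time after infection and separation of animals are not known, and Xist marks 3 of 4 TLR3-KO controls.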
